A study of Mus musculus with 10 samples.

Results

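Messenger RNA levels of a density fraction of mouse testis cells labelled pachytene spermatocytes were compared with those of whole testis, both from C57BL/6 male mice at day 15 of age. The comparison used 4 of the 10 samples of the series, 1 array per group on each of 2 companion Affymetrix designs that carry mostly different probe sets. It covered 13845 genes whose signal was above a detection floor in the fraction, in whole testis or in both, of 18194 genes with a probe set of their own. The pachytene sample was fraction 8 of a discontinuous Percoll gradient. The other samples were fraction 2 (spermatogonia, day 8), fraction 5 (leptotene and zygotene spermatocytes, day 12) and a mixture of 11 somatic tissues (day 15). They served for reference, in scaling, floors and probe set choice, and for the spread in the test described below. No mutation, transgene or drug distinguishes the groups. The same text on enzymatic dissociation and Percoll separation is attached to all 10 samples, so the labels do not settle how the whole testis was handled before RNA extraction. They do not give the number of animals pooled, or whether a group's 2 samples were prepared separately. The title of the series names chromosome segregation at the first meiotic division as the interest of the screen.

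In pachytene, a long stage of the first meiotic prophase, homologous chromosomes are held together along their length by the synaptonemal complex while recombination is completed. The X and Y chromosomes, which share little homology, are packed into the sex body and their genes are largely silenced, a process called meiotic sex chromosome inactivation. Mid-pachytene cells also begin to transcribe genes for the later meiotic divisions and for sperm parts such as the acrosome and flagellum, many of them under the transcription factors A-MYB (Mybl1) and RFX2, and store part of these messages for translation in spermatids. Whole testis at this age holds the same spermatocytes together with younger germ cells and somatic cells: Sertoli cells, Leydig cells, peritubular myoid cells, vessels and macrophages.

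To illustrate these programs, the upstream sequences of a few called genes are shown first. They are not a ranking by size: Pgk2, Tcp11 and Tekt4 stood just above 4-fold, at log2 differences of 2.09, 2.18 and 2.02. Each line is the RefSeq GRCm38.p6 window of 300 bases, from 250 before to 50 after a transcript start, read 5′ to 3′ on the gene's strand. Capitals mark 3 motifs searched on both strands: the letters GGCAGTT of the A-MYB site, GTTGCCA, a half-site of RFX factors, and TGACGTCA, the cyclic AMP response element (CRE). The labelled cell type had its markers: Ybx2 and Acr, germ-cell genes of this stage, were 5284 and 2045 in the fraction and 513 and 322 in whole testis. Ybx2 (a Y-box protein that binds stored germ-cell messages), Tcp11 (a testis protein of sperm) and the flagellar genes Tekt4 and Dnaic2 were higher in the pachytene fraction. Pgk2 and Pgk1 are the autosomal and X-linked genes of phosphoglycerate kinase, and they went opposite ways. The windows are chr11:69936078-69936377, plus strand (Ybx2), chr17:28080590-28080889, minus strand (Tcp11), chr17:40208560-40208859, minus strand (Pgk2), chr17:25471340-25471639, plus strand (Tekt4), chr11:114727169-114727468, plus strand (Dnaic2) and chrX:106186850-106187149, plus strand (Pgk1).
Ybx2: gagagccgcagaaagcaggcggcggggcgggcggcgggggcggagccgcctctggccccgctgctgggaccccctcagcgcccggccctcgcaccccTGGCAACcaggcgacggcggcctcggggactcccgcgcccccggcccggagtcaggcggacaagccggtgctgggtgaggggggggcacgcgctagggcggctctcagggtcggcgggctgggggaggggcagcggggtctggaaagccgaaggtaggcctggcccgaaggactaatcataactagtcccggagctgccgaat
Tcp11: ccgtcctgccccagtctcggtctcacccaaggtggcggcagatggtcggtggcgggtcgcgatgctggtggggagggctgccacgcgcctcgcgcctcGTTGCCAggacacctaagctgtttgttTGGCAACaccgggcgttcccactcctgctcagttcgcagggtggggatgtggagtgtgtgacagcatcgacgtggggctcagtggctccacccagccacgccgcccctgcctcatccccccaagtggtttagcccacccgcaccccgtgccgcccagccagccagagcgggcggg
Pgk2: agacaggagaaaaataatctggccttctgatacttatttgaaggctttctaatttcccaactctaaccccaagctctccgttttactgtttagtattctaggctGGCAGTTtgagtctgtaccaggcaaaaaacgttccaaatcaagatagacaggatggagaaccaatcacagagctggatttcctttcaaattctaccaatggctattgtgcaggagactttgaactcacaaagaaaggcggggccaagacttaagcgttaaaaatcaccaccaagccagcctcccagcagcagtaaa
Tekt4: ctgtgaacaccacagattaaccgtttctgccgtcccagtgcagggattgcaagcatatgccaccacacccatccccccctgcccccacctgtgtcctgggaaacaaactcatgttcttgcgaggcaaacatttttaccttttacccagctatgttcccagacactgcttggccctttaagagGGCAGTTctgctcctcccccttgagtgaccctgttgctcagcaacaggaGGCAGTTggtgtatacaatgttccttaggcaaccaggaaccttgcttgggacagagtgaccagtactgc
Dnaic2: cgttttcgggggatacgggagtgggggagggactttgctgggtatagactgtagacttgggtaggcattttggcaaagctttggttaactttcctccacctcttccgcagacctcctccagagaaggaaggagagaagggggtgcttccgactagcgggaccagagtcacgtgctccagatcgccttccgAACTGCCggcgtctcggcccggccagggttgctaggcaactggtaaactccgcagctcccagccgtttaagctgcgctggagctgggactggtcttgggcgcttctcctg
Pgk1: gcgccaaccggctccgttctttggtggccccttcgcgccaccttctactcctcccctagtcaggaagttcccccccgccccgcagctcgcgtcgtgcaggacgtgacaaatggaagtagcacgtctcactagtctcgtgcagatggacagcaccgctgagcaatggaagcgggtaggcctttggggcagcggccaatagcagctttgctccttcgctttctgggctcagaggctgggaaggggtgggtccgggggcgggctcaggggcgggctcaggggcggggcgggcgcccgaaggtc
The Ybx2 window holds 1 RFX half-site and the Tcp11 window 2. The Pgk2 and Dnaic2 windows hold 1 A-MYB letter string each and the Tekt4 window 2, the nearer one starting 19 bases before the transcript start. The Pgk1 window holds none of the 3 motifs. Each higher gene shown holds at least 1 of them, unlike most windows of higher genes, so the examples do not stand for the called genes. Of promoter windows of genes at least 4-fold higher in pachytene (319 windows of 259 genes), 7.52% held GGCAGTT and 8.15% held GTTGCCA. For genes at least 4-fold lower (589 windows of 484 genes) the shares were 3.40% and 2.72%, and over all measured genes (14100 windows of 11117 genes) 3.89% and 4.21%. Among all 32851 promoter windows the shares were 4.12% and 4.38%. The CRE was in 1.88% of windows of the higher genes, 2.72% of the lower, 2.82% of all measured and 1.79% of all promoters. The AP-1 site TGANTCA, bound by FOS and JUN proteins, was in 4.39% of the windows of higher genes, 5.43% of those of lower genes, 5.41% of all measured and 7.81% of all promoters. The SP1 letters GGGCGG were in 50.8%, 58.9%, 57.4% and 35.7%. No string of the 5 contains another. A motif here is a run of letters in the sequence, and binding was not measured.

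A gene's difference comes from a single array per group, so it has no replicate check and no p-value. Signals are scaled fluorescence intensities, comparable between groups for one gene and not between genes. The 100 probe sets that both designs carry repeated their log2 difference with r = 0.93 across probe sets, and 88 of 100 had the same sign. The error of a log2 difference from these pairs was 0.235, so its 95% limit was 0.46, or 1.38-fold. It was measured with the same probes on these 100 probe sets only, and was not measured for the other genes to which the limit is applied. Where samples 1 and 2 are one preparation, it holds only technical spread. Genes with separate probe sets on both designs gave a looser repeat, with r = 0.34 across 1933 genes. Of 106 such genes called at 4-fold on the first design, 100 had the same direction on the second, 65 passed the error limit there, 8 passed 4-fold again and 0 passed it in the opposite direction. The median difference of the 27 higher ones was 2.27 on the first design and 0.60 on the second. For the 79 lower ones it was -2.25 and -0.76. Precision is limited by this number of arrays throughout. A gene is said to have risen or fallen, or is called higher or lower, where it differed by at least 4-fold (log2 2). Genes beyond the error limit are described as such. A gene at the floor in one group has only a bound, written as at least N-fold. Bulk RNA cannot tell fewer cells of a type from less RNA per cell, and this holds for each result below.

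Whole testis stood apart from the other libraries in 2 ways. Its ratio of 3′ to 5′ signal on the Gapdh control was 4.33 and 3.75 on the 2 designs, against 1.07 to 1.52 on the other 8 arrays. On the Actb control it was 5.22 and 6.57, against 1.88 to 3.40. A higher ratio is a known mark of shorter or partly degraded RNA. Whole testis also carried transcripts of other organs. Apoa4, an intestinal lipoprotein gene, had a signal of 9684 in whole testis and was at the floor in all 3 fractions. It was 13048 in the somatic mix. Apoa1 (liver and intestine) was 9350.0, Fabp1 and Fabp2 (intestinal fatty acid binding proteins) 7129.9 and 6887, and Alb (liver albumin) 3907, each at the floor in the pachytene fraction. Lists of organ genes were drawn up after these values were seen. All 11 pancreas genes on the arrays were above the floor in whole testis and all 11 were called lower in the fraction (median log2 difference -4.52), where 4.39% of all measured genes were. All 11 were above the floor in the mix as well, although pancreas is not among the tissues its label names. All 13 intestinal genes were above the floor in whole testis and 12 were called lower, 10 of 11 liver genes were above it and 6 called, and all 14 muscle genes were above it and 8 called. Some fat genes were brighter in whole testis than in the mix, such as Car3 (5993 against 2838) and Fabp4 (4366 against 3449). Of epididymis and duct genes 9 of 12 were above the floor in whole testis and 5 were called lower, led by Spink8 (4597, against 155 in the mix) and Defb42. Rnase10 of that list went the other way, at 446 in the fraction and 156 in whole testis. Of 10 brain genes 2 were above the floor in whole testis, and of 7 lymphoid genes 2. For stomach and kidney it was 4 of 7 each, for skin 5 of 9 and for lung 5 of 7, with 0, 1, 0 and 0 called lower. Detection itself was common: of all 18194 genes, 10962 were above the floor in both groups and 2098 in whole testis only. The share of 9 of 12 epididymis and duct genes is near that background. How these transcripts came into the whole testis RNA was not tested. Of the 34 genes at least 16-fold lower, 31 were brighter by 4-fold or more in the mix than in every fraction. The pachytene fraction is among these, so a low signal there favours both properties and the 2 are not independent.

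**Figure D1:**
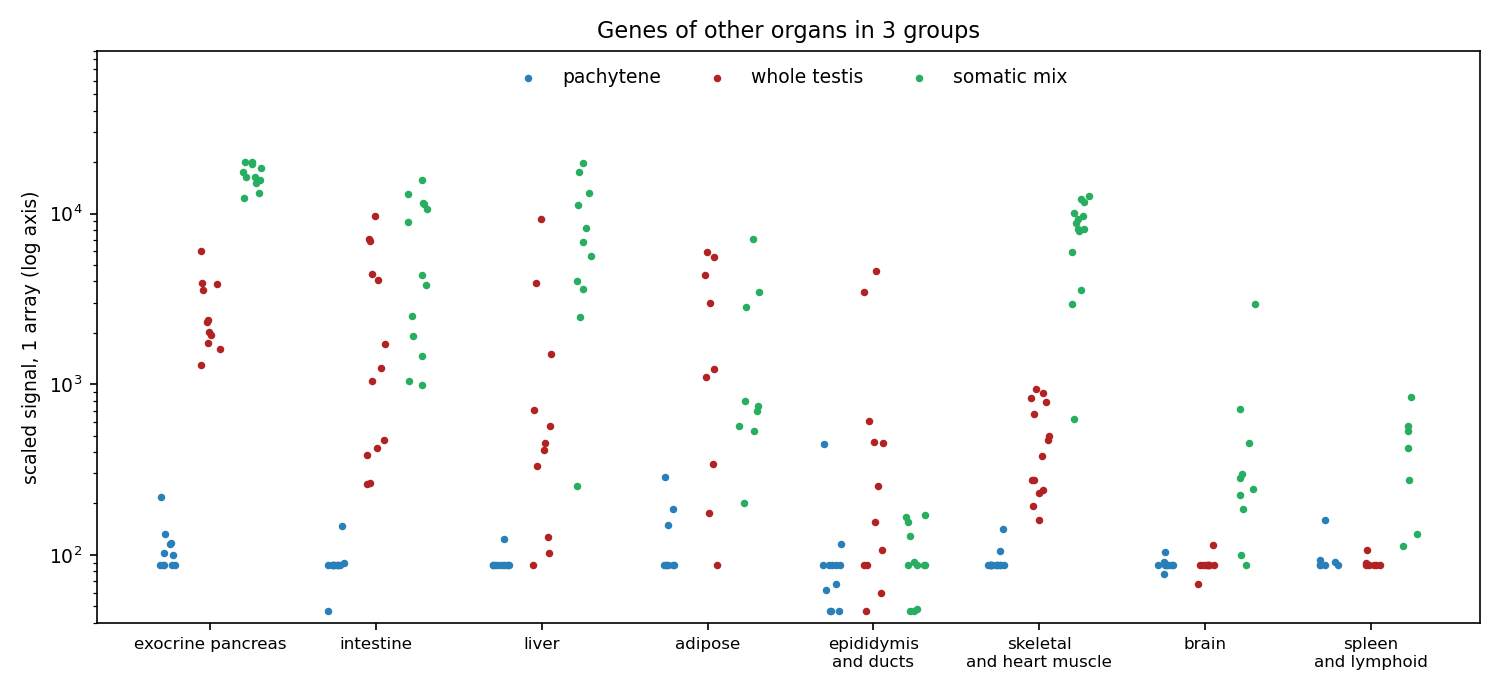
Scaled signal (log axis) of genes typical of 8 organs in the pachytene fraction, whole testis and the somatic mix, 1 point per gene and 1 array per group, with genes below the floor drawn at the floor of their design (87.3 or 47.0). Pancreas, intestine, liver, fat and muscle genes lie mostly above the floor in whole testis. In the pachytene fraction all but 1 or 2 of the intestine, liver and muscle genes are at the floor and 7 of 11 pancreas genes lie a little above it, while brain and lymphoid genes lie near the floor in both.

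Of the 13845 measured genes, 325 were at least 4-fold higher in the pachytene fraction (2.35%) and 608 at least 4-fold lower (4.39%). Beyond the error limit 3560 were higher (25.7%) and 5283 lower (38.2%), and 5002 lay within it. Of the called genes 41 of the higher and 209 of the lower were bounds against the floor. The median difference over all measured genes was -0.18. It was -0.10 over the 10962 genes above the floor in both groups, with quartiles at -0.78 and 0.61. Counts of calls depended on scaling. Relative to the scaling used here, that middle value shifted by 0.33 with median scaling, by 0.15 with scaling to the shared probe sets and by 0.13 with quantile normalization. The split of higher and lower calls was then 694 and 359, 478 and 451, and 304 and 405, and 684 and 827 with the values as deposited. Of all 18194 genes 804 were of the organ type, at least 4-fold brighter in the somatic mix than in each of the 3 fractions. Setting aside the 593 of them that were measured, a step chosen after seeing the data, left 325 higher and 465 lower. Since the pachytene fraction is part of that definition, the step removes lower genes far more readily than higher ones. Of the 608 lower genes 143 were of the organ type, 74 were X-linked, 3 were both, and 394 were neither.

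With 2 arrays per group, the shared probe sets allowed a test. It took 1 estimate of the spread from all 10 arrays of the 5 groups. Its errors and p-values therefore rest partly on groups outside the comparison. By limma with Benjamini-Hochberg adjustment 28 of the 100 were higher (28%) and 40 lower (40%) in the pachytene fraction. That balance followed the scaling: it was 42 and 20 with median scaling, 20 and 12 with the values as deposited, and 7 and 28 with quantile normalization. The 4 with the smallest adjusted p all passed 4-fold on average over the 2 arrays. Abhd17a, a depalmitoylating enzyme, had signals of 5371 and 4192 in the pachytene samples and 1149 and 1092 in whole testis (log2 2.08 ± 0.17 SE, limma adjusted p = 1.49e-10). Txndc12, an oxidoreductase of the endoplasmic reticulum, had 1202 and 1451 against 347 and 266 (2.12 ± 0.17, adjusted p = 1.19e-10). Golm1, a Golgi membrane protein, had 93.0 and 87.5 against 714 and 519 (-2.75 ± 0.18, adjusted p = 1.26e-12), and Sap30l had 207 and 159.6 against 1105 and 841 (-2.41 ± 0.18, adjusted p = 1.99e-11). In each of these the samples of one group did not overlap those of the other. The choice by smallest p-value makes that near certain, so it adds no evidence. Probe sets with small differences also did not overlap, such as BC031181 (1479 and 1475 against 1998 and 1999). Where samples 1 and 2 are one preparation, the p-values measure only technical spread.

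The genes with the largest rises were led by Fos, whose signal was 5015 in the fraction and 154 in whole testis (32.5-fold), which is described with its family further on. Where 2 signals are set against each other from here on, the first is that of the pachytene fraction and the second that of whole testis. Next came Tex22, a gene of the developing acrosome, at 2045 against 79.7 (25.7-fold) and at the floor in spermatogonia, leptotene/zygotene cells and the somatic mix. Cep164, a protein of the distal appendages of centrioles, was 2661 against 187 (14.2-fold), and Tmem120a 974 against 70.0. Of the other genes above the floor in both groups, Brd2 (a bromodomain protein), Abcc3 (a transporter), Ppp1r27, Ms4a20, Baz1a (a chromatin remodelling subunit), Slc22a16 (a carnitine transporter), Pxt1, Brms1 and Kcnmb4os2 were between 8.00-fold and 13.3-fold higher. Brd2 was almost as bright in the younger fractions (3839 and 3883), whereas Abcc3, Ms4a20 and Slc22a16 were at the floor there. Brms1 stayed under 4-fold with quantile normalization (log2 0.91) and with the mean over its probe sets (1.75), and Brd2 did so where probe sets of less specific design were left out (1.79). Genes at the floor in whole testis included Ccdc88b (558 in the fraction, at least 11.9-fold higher), Csl, a citrate synthase-like gene (618, at least 7.08-fold), the transcription factor Atoh8 (565, at least 6.48-fold), the Polycomb subunit Pcgf1 (531), Rrp9 (514) and Fbn2 (494). Of the 325 genes called higher, 301 were brightest in the pachytene fraction among the 5 groups, and 174 (53.5%) were also above the floor in the somatic mix. That share was 93.75% for the genes called lower and 88.0% for those not called. The count of 301 follows in part from the selection, which used the same pachytene signals.

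**Figure D2:**
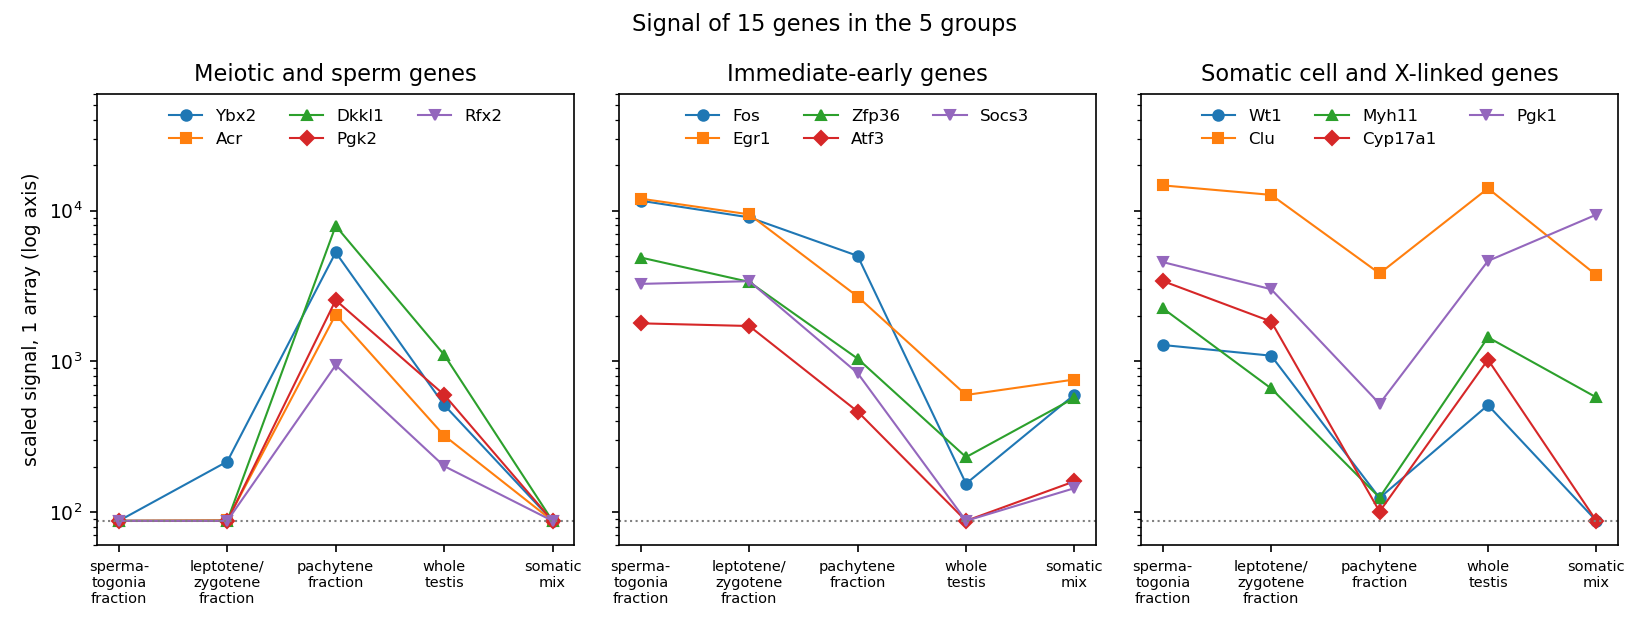
Scaled signal (log axis) of 15 genes in the 5 groups, 1 array of the first design per group, with lines joining the values of one gene and a dotted line at the floor of 87.3. Ybx2, Acr, Dkkl1, Pgk2 and Rfx2 peak in the pachytene fraction, the immediate-early genes are brightest in the 2 younger fractions and lowest in whole testis, and Wt1, Clu, Myh11, Cyp17a1 and Pgk1 are lower in the pachytene fraction than in whole testis.

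Each gene list below is to be read beside the shares over all measured genes. A member above the floor in 1 group only is brighter there by construction, and is counted with the rest. Beyond the error limit these were 25.7% higher and 38.2% lower, and 2.35% rose and 4.39% fell. The transcription regulators of the germ line were mostly brighter in the fraction. Beyond the error limit 13 of 19 were higher and 3 lower, with a median difference of 1.00 (all measured genes -0.18; 0.63 over 12 genes on the second design alone), and 2 rose and 1 fell. Ovol2, a zinc-finger repressor, was 1019.9 against 182 (5.60-fold). Rfx2, which switches on genes of cilia and flagella, was 943 against 202 (4.68-fold), and Mybl1, the gene of A-MYB, 438 against 126. Mybl1, Dmrtb1 (4425 against 1249), Gtf2a1l (a germ-cell subunit of general factor TFIIA, 5502 against 1961) and Brdt (the testis bromodomain protein, 1417 against 658) stayed under 4-fold. The member that fell was X-linked: Taf7l, a subunit of TFIID, at 190.3 against 1103. Rfx2 was not called on the second design alone, where its difference was 0.60.

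Among RNA-binding proteins, Ybx2 had the largest rise, 5284 against 513 (10.3-fold). Its signal was 216 in leptotene/zygotene cells and below the floor in spermatogonia and in the mix. Pabpc2, an intron-less poly(A)-binding protein gene of the testis, was 4273 against 780.5, and Rbmxl2, an autosomal copy of Rbmx, 259 with whole testis at the floor (at least 5.50-fold). Papolb, the testis poly(A) polymerase, was 3058 against 1049. Dazl, a translation regulator active from the spermatogonial stage on, fell to 787 from 3254, a call lost when its probe sets were averaged (-0.60). Beyond the limit 11 of 22 were higher and 3 lower, and the median was 0.48.

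Genes of the piRNA pathway, which makes small RNAs that silence transposons, divided by member. Pld6, the mitochondrial nuclease that helps form piRNAs, was 1724 against 417 and rose. Piwil1, the pachytene-stage PIWI protein, was 3527 against 1408, and the Tudor proteins Tdrd1, Tdrd5 and Tdrd7 were 261 against 94.3, 1274 against 469.8 and 5706 against 2369. Piwil2, the PIWI protein that is also active in younger germ cells, was 1699 against 2605 and Mov10l1, the helicase of the pathway, 736 against 1742. Beyond the limit 10 of 20 were higher and 2 lower, with a median of 0.43 that quantile normalization brought to 0.

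Of 19 measured genes of germ-cell energy metabolism 15 were higher beyond the limit, 0 lower, and 2 rose: Pgk2 (2548 against 600.0) and Prps1l1, an intron-less gene of phosphoribosyl pyrophosphate synthetase (8246 against 1990.2). Ldhc, the testis lactate dehydrogenase, was 23494 against 16538, a log2 difference of 0.51. The cytochrome oxidase isoforms Cox6b2, Cox7b2 and Cox8c of testis were 11233 against 5334, 7828 against 3675 and 12087 against 6515. Gapdhs, the sperm glyceraldehyde phosphate dehydrogenase that is made in spermatids, was 132 against 169.6. The list's median was 0.89. Pgk2 and Prps1l1 lie close to the threshold, and each dropped below 4-fold in some alternatives (lowest log2 difference 1.78 and 1.38).

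Genes of the acrosome, the enzyme-filled cap of the sperm head, had a median of 1.34, which was 0.57 over the 12 genes measured on the second design alone. Beyond the limit 17 of 23 were higher and 1 lower, and 5 rose. Dkkl1, an acrosomal protein, was 7928 against 1106 (7.17-fold). Prss21 (testisin, a serine protease) was 2719.6 against 388, and Acr, the precursor of the protease acrosin, 2045 against 322 (6.36-fold). Spata16, needed for acrosome formation, was 1443 against 234 and Acrbp, which binds proacrosin, 3532 against 705. The sperm surface proteins Adam2 and Adam3 were under 4-fold (4986 against 2596 and 2364 against 939). Izumo1, the sperm protein of egg fusion, was near the floor in both (48.6 against 77.4), and 8 further members, Spam1 and Acrv1 among them, were below it in both.

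Genes of the flagellum and its axoneme were higher across nearly the whole list. Beyond the limit 34 of 40 were higher and 0 lower, and 6 rose, with a median of 1.15. Of the 40 members, 32 were above the floor in both groups. Dnaic2, an intermediate chain of the outer dynein arm, was 845 against 87.8 (9.63-fold), although its other probe sets did not repeat the size (1.67 with the mean over probe sets and 0.08 without probe sets of less specific design). Spag17, of the central pair apparatus, was 799.5 against 106, Rsph9, of the radial spokes, 2544 against 442, and Dnaic1 1269.7 against 280.4. The tektins Tekt4 and Tekt5, filaments of the axonemal wall, were 1591 against 392 and 269.8 with whole testis at the floor, while Tekt1, Tekt2 and Tekt3 were 3804 against 1726, 1587 against 483 and 2671 against 1128. Akap3, Odf1 and Ropn1, proteins of the fibrous sheath and outer dense fibres made late, were near the floor in the fraction (93.4, 126 and 146) and below it in whole testis.

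Of 15 measured testis chaperones 3 rose: Dnajb3 (4171 against 795), the small heat shock protein Hspb9 (11173 against 2471) and Dnajb13 of the radial spoke (1742 against 393). Hspa2, which acts in desynapsis and the meiotic G2 to M transition, was 5515 against 3031. Hspe1, the mitochondrial co-chaperonin, fell (676 against 2757). The list's median of 0.68 was -0.21 on the second design alone, which measures 6 of its genes. Among histones, Macroh2a1, a histone of silent chromatin that includes the sex body, rose (2233 against 373), as did the linker histone H1f10 (586 against 134). H1f6, the testis linker histone H1t, lay just above the floor (100.2), and H1f2 fell (109.9 against 476), a call that its specific probe set alone did not give (log2 0.037).

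**Figure D3:**
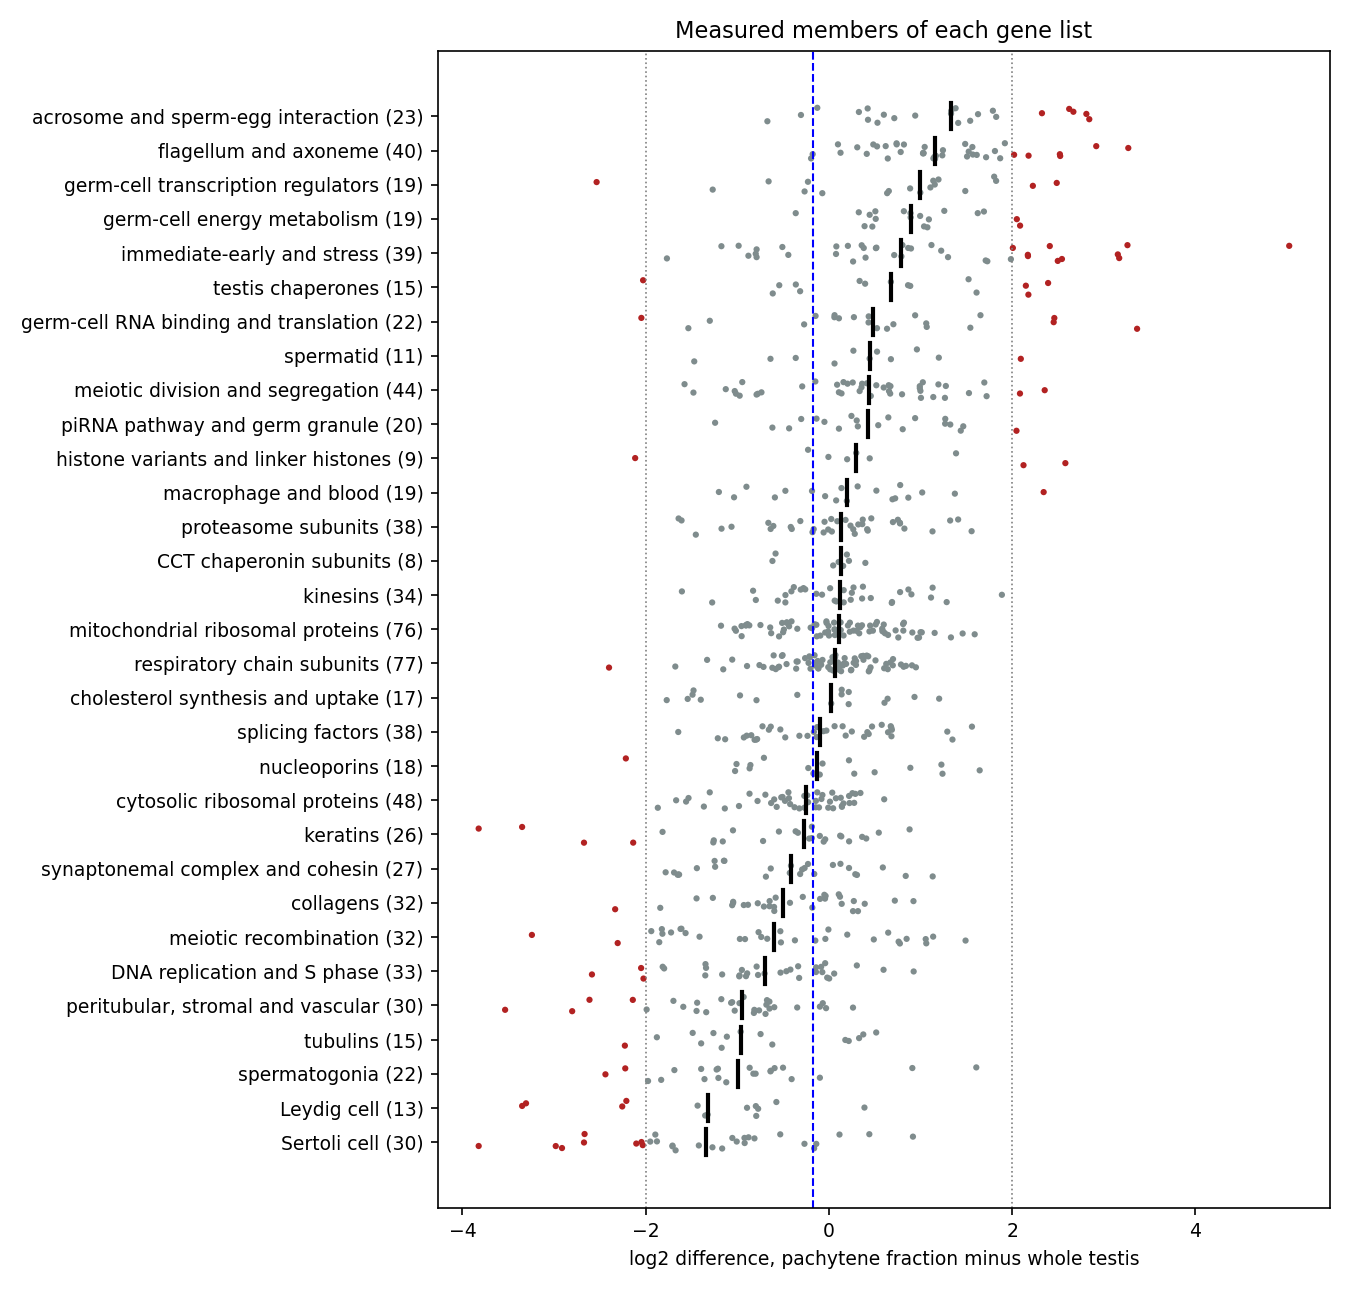
Log2 difference between the pachytene fraction and whole testis for the measured members of 31 gene lists and families (number in brackets), 1 point per gene. Black bars are medians, red points differ by at least 4-fold (dotted lines), the dashed line is the median of all measured genes (-0.18), and lists run from acrosome genes at the top (median 1.34) to Sertoli cell genes at the bottom (-1.35).

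Of 27 measured genes of chromosome pairing (the synaptonemal complex and cohesin) 0 passed 4-fold, against 2.35% higher and 4.39% lower over all genes. Beyond the limit 3 were higher and 12 lower, beside 25.7% and 38.2% of all genes, so the lower count is near the background. The median was -0.41, close to 0 with median scaling (-0.07). Sycp1, the transverse filament, was 487 against 1675, and Hormad1, which marks unpaired axes, 111 against 300.2. Sycp3 and Sycp2, of the lateral element, and Syce3 differed by less than the error limit (2501 against 3363, 3925 against 3598 and 2996 against 2574). Syce1 (6378 against 3568) and the meiotic cohesin subunit Stag3 (3841 against 2555) were higher, whereas the cohesin genes Smc3, Rad21 and Stag2 of both mitosis and meiosis were lower (484 against 1149.8, 213 against 662 and 146 against 458). Stag2 and Smc1a are X-linked.

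Recombination genes had members on both sides. Dmc1, the meiotic recombinase, was 87.5 against 289, Meiob, a single-strand binding protein, 192 against 736, Brca1 139 against 493, and Mnd1, a partner of Dmc1, fell from 432 to the floor (at least 4.94-fold). Tex15, needed for loading of the recombinases, had the largest fall, 224 against 2124 (9.46-fold). Spo11, the enzyme of the double-strand breaks, was higher (1362 against 652), as were Hsf2bp (1544 against 549), Mlh3 of the crossover step (362 against 214) and Psmc3ip, another Dmc1 partner (4472 against 2033). Beyond the limit 9 of 32 were higher and 18 lower, beside 25.7% and 38.2% of all genes, and 2 fell, beside 4.39%. The higher count and the count of falls are near the background. The median was -0.60, but 0.30 over the 11 genes measured on the second design alone. Mnd1 was -0.94 with the floor at the 60th percentile.

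Genes of the meiotic divisions and of segregation, the subject of the series' title, were more often brighter than dimmer in the fraction. Beyond the limit 21 of 44 were higher and 10 lower, beside 25.7% and 38.2% of all genes, and the median was 0.44. The 2 that rose, beside 2.35% of all genes, are near the background. They were Plk1, the polo kinase of spindle assembly and chromosome disjunction, at 1389 against 272 (5.12-fold), and Aurka, the spindle-pole kinase, at 4622 against 1089 (4.24-fold). Aurka dropped below 4-fold in some alternatives (lowest log2 difference 1.78). Aurkc, the aurora kinase of meiosis, was 1729 against 524, and Ccna1, the meiotic cyclin A, 2062 against 637 and below the floor in both younger fractions. Espl1 (separase) was 1302 against 537, Pttg1 (its inhibitor securin) 13331 against 6673, Ccnb2 3389.8 against 1481 and the checkpoint kinase Bub1b 1146 against 577. Lower were the cyclin Ccna2 (344 against 676) and the checkpoint genes Bub1 (857 against 1870.5) and Mad2l1 (409 against 834). Sgo1, a shugoshin of mitosis, was 139.7 against 416, while Sgo2a, its meiotic counterpart, was 642 against 536, within the limit. Meikin, which sets kinetochores for the first division, was 531 against 334. Fbxo43 and Ccnb3 were below the floor in both groups.

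DNA replication genes were lower: beyond the limit 19 of 33 were lower and 2 higher, 3 fell, and the median was -0.70, or -0.27 over the 8 genes of the second design. Fen1, the flap endonuclease, was 220.3 against 1323 (6.01-fold lower), Mki67, a marker of cycling cells, 510.3 against 2113 and the helicase subunit Mcm3 311 against 1265. Mcm2, Mcm5 and Mcm6 were 438 against 1116, 277 against 973 and 485 against 1228, but Mcm7 and Pcna were within the limit (5817 against 5895 and 5273 against 5812).

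Markers of other cells were used to set the fraction beside the tissue. Of 22 measured genes of spermatogonia 18 were lower and 2 higher beyond the limit, with a median of -0.99. Dmrt1 (262 against 1225) and the X-linked Rhox13 (244 against 1323) fell. Stra8, the gene of meiotic entry, was 376 against 1339, and Kit, of differentiating spermatogonia, 117 against 274. Id4 (1989 against 1058) and Utf1 (327 against 107) were higher. By their chosen probe sets Zbtb16, Ret and 8 others were below the floor in both groups. A Zbtb16 probe set of the second design was above the floor in both and lower beyond the limit (55.8 against 94.7). Of 26 spermatid genes 15 were below the floor in both, Prm2, Tnp1 and Tnp2 of sperm chromatin among them, and Prm1 was at the floor in whole testis and 91.0 in the fraction. One rose, Actl7b, an actin-related protein (3223 against 755).

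Sertoli cells, which nurse the germ cells, gave a list median of -1.35. Beyond the limit 24 of 30 were lower and 1 higher, and 8 fell. Wt1, a defining transcription factor, was 124 against 512 (4.13-fold lower) and Inhbb, an inhibin subunit, 134 against 576. Another probe set of Inhbb did not repeat this (148 against 152). Gja1, the gap junction protein connexin 43, was 466 against 3511, and Kitl, the ligand of Kit, 177 against 726. Bright Sertoli genes under 4-fold were Clu, the secreted clusterin, at 3831 against 14076, and Cst12 at 5823 against 11018. These signals in the fraction lay well above the floor: Clu at 3831 was as bright as in the somatic mix (3739). The fraction's summed signal over the list was 23761, against 65267 in whole testis. Sox9 was 94.5 in the fraction and at the floor in whole testis, Gata4 was 133 against 149, and Amh was below the floor in both. A Sox9 probe set of the second design went the other way, below the floor in the fraction and 53.1 in whole testis. In the spermatogonia fraction Wt1 was 1284, Inhbb 2371 and Sox9 804, each above both day 15 testis samples. Krt18, Krt8, Cldn3 and Ptgds, which also fell, were brighter in the somatic mix than in whole testis. Their part in the list's median was not tested. Wt1 was lower than 4-fold in 5 alternatives (smallest difference -1.19), and Kitl was -0.36 with averaged probe sets.

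Leydig cell genes of testosterone synthesis also fell: Cyp17a1 was 101 against 1025 (10.2-fold) and Hsd3b1 135 against 1333 (9.89-fold). Of 13 measured members 12 were lower beyond the limit and 4 fell, with a median of -1.32. On the second design alone, with 4 genes of each list, the Leydig median was -0.48, that of Sertoli genes -0.58 and that of the peritubular list described next -0.20. Star, the cholesterol carrier of these cells, was 158 against 294. As with the Sertoli genes, the spermatogonia fraction was brighter than whole testis for Cyp17a1 (3413) and Hsd3b1 (3242). Of 30 genes of peritubular, stromal and vascular cells 25 were lower, 0 higher, 4 fell and the median was -0.95. Myh11, smooth muscle myosin, was 125 against 1444 (11.6-fold), Actg2 105 against 642, and Acta2, the myoid cell actin, 2751 against 7457. Col1a1 was within the limit (1657 against 1381) and Col3a1 was 3282 against 6824. Another probe set of Col1a1 was higher beyond the limit (420 against 140). Of the 4 falls 0 kept the call under all alternatives, and Myh11 was -1.77 with averaged probe sets. Smooth muscle is also a part of gut and duct walls, whose other genes whole testis carried, and its part in these falls was not tested.

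Macrophage and blood genes did not follow the other somatic lists. Beyond the limit 8 of 19 were higher and 5 lower, and the median was 0.20, or -0.11 with the values as deposited. C1qa, a complement subunit of macrophages, was 443 in the fraction and at the floor in whole testis (at least 5.08-fold), and C1qc was 481 against 186. The call of C1qa was lost in some alternatives (lowest log2 difference 0.98). Csf1r, the macrophage growth factor receptor, was 1308 against 1487 and Adgre1 204 against 193, both within the limit. Other probe sets of Csf1r gave 392 against 471 and 246 against 133, the latter higher beyond the limit. H2-Aa (98.1 against 226) and Ctss (516 against 964) were lower. Hba-a1, of red cells, was below the floor in both groups.

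Immediate-early genes, which cells switch on within minutes of stress, growth signals or handling, formed the largest group of rises among the lists: 10 of 39 measured members, with 0 falls. Fos was 5015 in the fraction, 154 in whole testis, 11645 in spermatogonia, 9032 in leptotene/zygotene cells and 601 in the mix. All 3 fractions were above both tissue samples. Egr1 was 2692 against 598, with 12019 and 9455 in the younger fractions. Zfp36, which shortens cytokine messages, was 1042 against 231. Socs3 (835), the chemokines Cxcl1 (784) and Cxcl2 (776), Ier3 (509), Fosb (493), Atf3 (464) and Ccn1 (351) were at the floor in whole testis, at least 4.02-fold to 9.57-fold higher. Except for Cxcl2, each of these was brighter still in the spermatogonia fraction, as with Ier3 at 5492. Cxcl1 passed 4-fold on both designs, at 3.17 and 2.81. Jun had 2 probe sets on the first design, 603 against 331 and 858 against 92.7. Beyond the limit 23 members were higher and 8 lower, with a median of 0.79, which was -0.36 over the 6 genes of the second design. All 39 measured members were above the floor in the fraction, but only 27 were above it in whole testis too. The others passed through the fraction alone, which fixes their direction, the rises against the floor among them. These counts and the median therefore lean to the higher side. Of the 10 rises 1, Fos, kept its call under all alternatives and 9 lost it under at least 1, down to 0.64 for Ccn1 and 1.05 for Atf3 with the floor at the 60th percentile. Hspa8, a constitutive heat shock protein, was lower (3056 against 10412). The labels do not settle whether the whole testis was dissociated like the fractions, so handling and cell type cannot be told apart here.

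X-linked genes were lower as a group. Their median difference was -1.09 over 430 measured genes, against -0.15 over 13313 autosomal genes. Beyond the error limit 325 of the X-linked genes were lower (75.6%, against 37.0% of autosomal ones) and 10 higher. At least 4-fold lower were 74, or 17.2%, against 3.99% of autosomal genes. Over the 19 autosomes that share ran from 2.18% to 5.71% and the median from -0.24 to -0.04. X-linked genes above the floor in the somatic mix (357) had a median of -1.17 and those at the floor there (73) -0.87. The share moved with the setting, from 6.05% with a log2 of signal plus floor to 20.5% on the first design alone, while the gap between the X and autosomal medians ran from -0.67 to -1.11 over all settings. Leaving out the organ-type genes gave 17.1%.

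**Figure D4:**
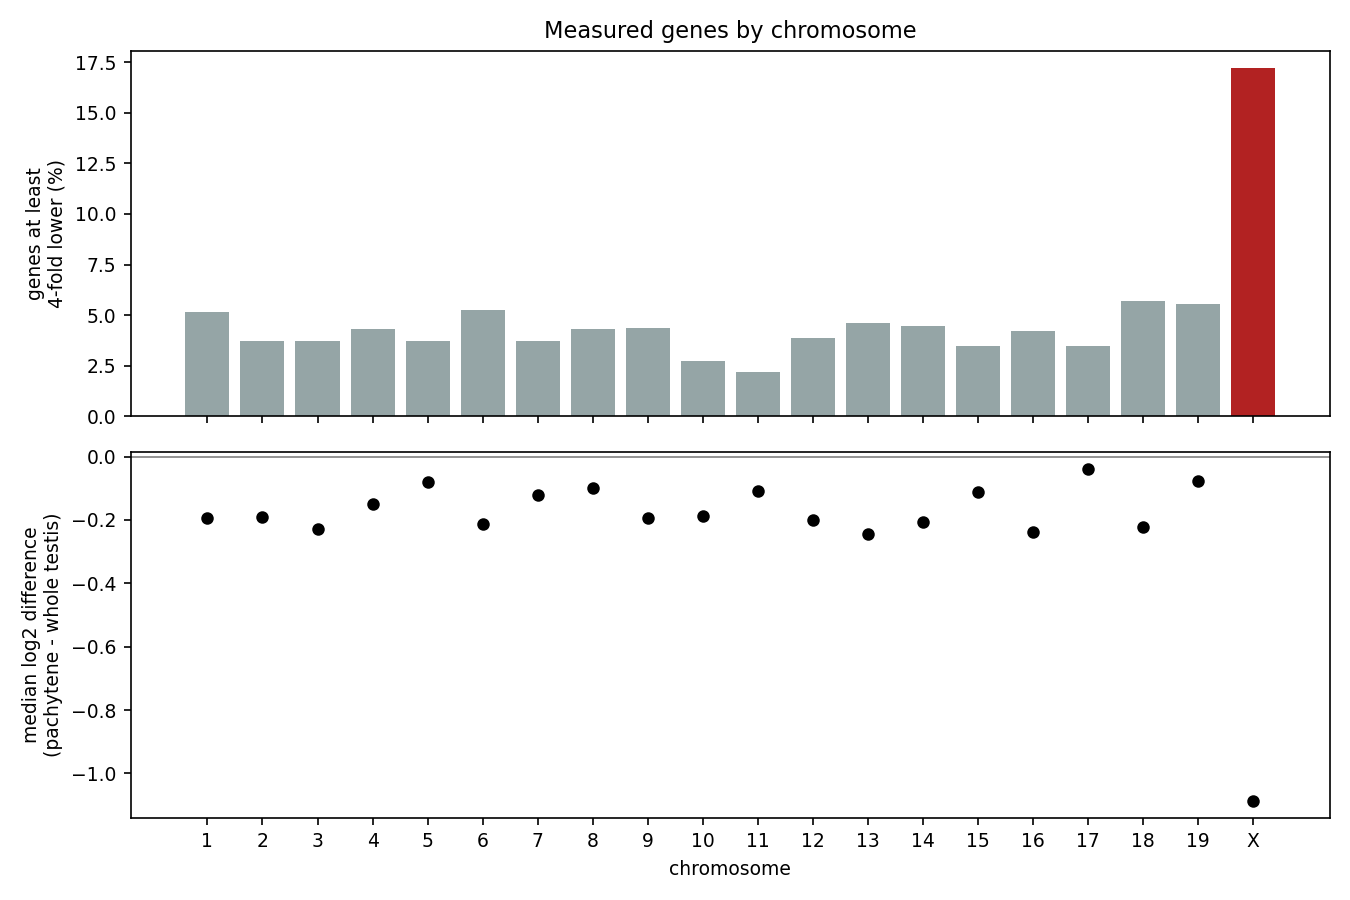
Percentage of measured genes at least 4-fold lower in the pachytene fraction than in whole testis (bars, upper panel) and median log2 difference (points, lower panel) for the 19 autosomes and the X chromosome. The X stands at 17.2% and -1.09, and the autosomes lie between 2.18% and 5.71% and between -0.24 and -0.04.

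The lowest X-linked genes above the floor in both groups were Pgk1 (523 against 4640.3, 8.88-fold lower), the actin bundler Pls3 (105 against 834) and Fmr1nb, a testis gene next to Fmr1 (211 against 1584). Amot, of the Hippo pathway, fell from 712 to the floor, and Adgrg2 from 458, but Adgrg2 is a receptor of the epididymal ducts. Pgk1 was 4560.1 in spermatogonia, 3011 in leptotene/zygotene cells and 9418 in the mix, so the pachytene fraction was the lowest of the 5 groups. One X-linked gene rose, Tsga8, a testis-specific gene (956 against 231, 4.13-fold). X-linked genes with bright probe sets and no call were Ndufa1 (5067 against 7577), Tmsb4x (4350.1 against 6395), Rps4x (2746 against 8726), Tceal9 (2338 against 3278), Morf4l2 (1594 against 5016) and Rbbp7 (1445 against 4978). All 6 were lower beyond the limit. Of the Y-linked genes Uba1y fell (172 against 1129.6), Usp9y was 108 against 354 and Eif2s3y went from 309 to the floor. Kdm5d, Uty, Zfy2 and Sry were below the floor in both groups.

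Many X-linked housekeeping genes have an autosomal copy, often intron-less and active in meiotic cells. Of X-linked genes and autosomal relatives, 12 pairs had both members measured. The X-linked member had a negative difference and the autosomal one a positive difference in each, but Rpl39, Cstf2t and Hnrnph1 changed sign under other scalings. The pairs are of unlike kinds: the partners Timm17a and Hnrnph1 were also bright in the somatic mix (2242 and 895). Rbmx and Rbmxl2 were each at the floor in 1 group, so their differences are bounds. Pgk1 and Pgk2 stood at -3.15 and 2.09. Cetn2, a centrin, fell (127 against 598) while Cetn1 was higher (3866 against 1481). Pdha1, a subunit of pyruvate dehydrogenase, was 261 against 991 and Pdha2 4753 against 2315. Fam50a was 135 against 485 and Fam50b 4578 against 1195, and Prps1 was 276 against 677 and Prps1l1 8246 against 1990.2. The ADP/ATP carriers Slc25a5 and Slc25a31 were 1098 against 3274 and 954 against 669.8. In the pairs Rpl39 and Rpl39l, Cstf2 and Cstf2t, and Hnrnph2 and Hnrnph1 at least 1 member lay within the error limit. The retrocopies Pgk2, Fam50b and Prps1l1 were below the floor in spermatogonia, leptotene/zygotene cells and the mix, and Rpl39l (2182 in spermatogonia) and Utp14b (334) were not. Pairs with Y-linked genes differed from this: Usp9x fell to the floor from 541 and Usp9y was lower too.

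**Figure D5:**
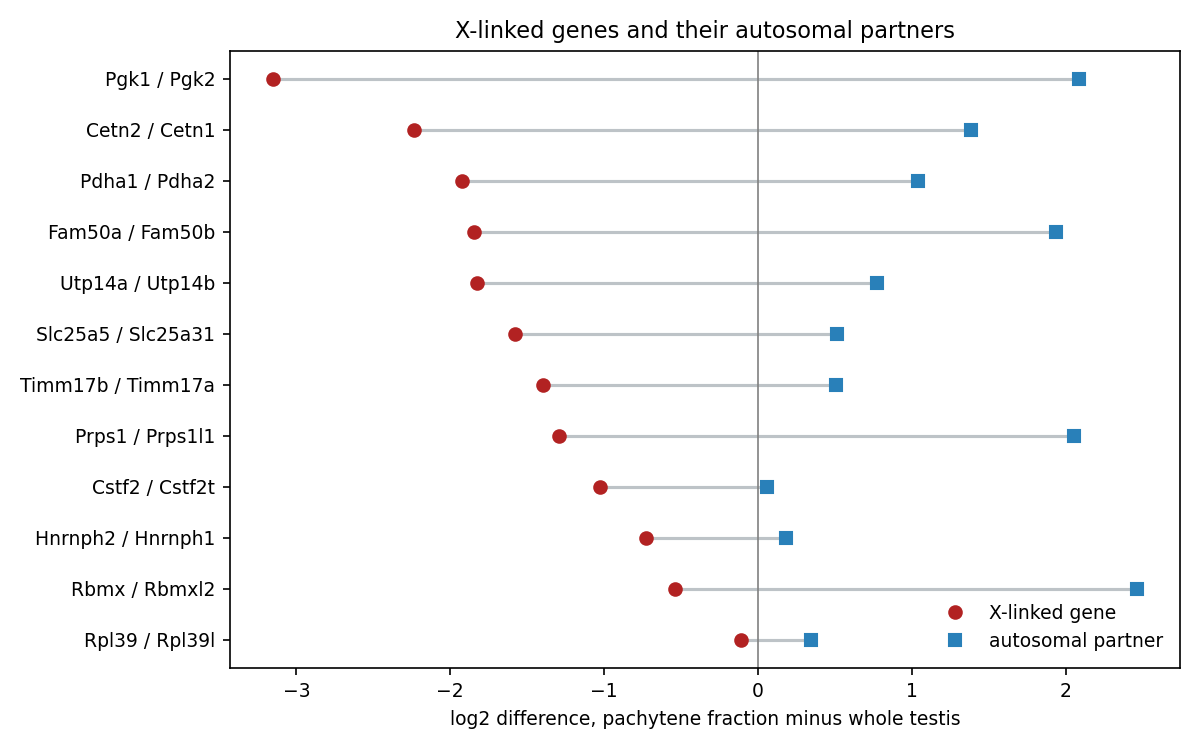
Log2 difference between the pachytene fraction and whole testis for 12 X-linked genes (circles) and their autosomal partners (squares), 1 array per group, joined by a line. All 12 circles lie below 0 and all 12 squares above it, and the gap is widest for Pgk1 and Pgk2 (-3.15 and 2.09).

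Some genes were at the floor in both younger fractions and in the somatic mix. Of 749 such genes, 339 were above the floor in both the pachytene fraction and whole testis. The other members passed through 1 of these groups only, which fixes their direction, so they are not summarised. Over the 339 the median difference was 1.45 and the quartiles were 0.79 and 2.02, given as a description of genes that passed the floor in both. Examples, chosen after their values were seen, were Ms4a20 (1368 against 139), Slc22a16 (2769 against 289), Lkaaear1 (2407 against 317), Hoxa4 (2586 against 437) and Mesp1, a mesoderm transcription factor (6815 against 1201).

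Families used by all cells lay near the median of all genes. Of 48 measured cytosolic ribosomal protein genes 0 passed 4-fold and the median was -0.25. The medians were 0.14 over 38 proteasome subunits, 0.07 over 77 respiratory chain subunits, 0.11 over 76 mitochondrial ribosomal proteins and 0.13 over 8 subunits of the CCT chaperonin. These small medians turn with scaling: with the values as deposited those of the proteasome, the respiratory chain, the mitochondrial ribosome and CCT were -0.17, -0.24, -0.19 and -0.17, and with median scaling that of the cytosolic ribosome was 0.11. The single fall among them was Ndufb11, an X-linked subunit of complex I (746 against 3937). Tubulins were lower, with a median of -0.96 over 15: Tubb2a fell (101 against 471), Tuba1a was 2549.8 against 6705 and Tubb5 1610.1 against 3626, but Tubb4b, the tubulin of axonemes, was 8616 against 6859. Of 26 keratins 4 fell, Krt18, Krt19, Krt8 and Krt20, all of simple epithelia and all bright in the somatic mix.

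The falls also held secreted proteins of the male tract, Defb42, Spink12 and Serpina1f besides Spink8, named after their values were seen. Myh11, Cyp17a1 and the organ genes Calml4, Prap1, Plac8 and Lgals2 were among the 15 largest falls with signal in both groups, and the rest were Spink8 and genes of the pancreas, intestine and fat. The 394 lower genes that were neither X-linked nor of the organ type were brightest in spermatogonia in 156 cases, in the somatic mix in 113, in leptotene/zygotene cells in 80 and in whole testis in 45, of the 4 groups other than pachytene.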

How the data were processed

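The values are the authors' deposited linear intensities per probe set, made with GCOS 1 per the submitters' processing notes. The sources used here do not give their scaling and background steps. Arrays were brought to a common 2% trimmed mean within each design. Signals under a floor were set to it: 87.3 on the first design (90th percentile of its 71 chemosensory receptor probe sets) and 47.0 on the second (median signal, since only 15 such probe sets were there). Genes came from probe sets naming 1 gene, by highest mean log2 signal, the first design preferred. Names and chromosomes come from RefSeq GRCm38.p6. Named were, per direction, the 15 largest differences with both groups above the floor, the 10 brightest against it, without clones and genes with opposing probe sets, 6 bright X-linked genes, and list members. Members and lists were chosen with earlier results of these data known. The error limit is 1.96 times the error from shared probe sets, which were tested with limma 3.58.1 in R 4.3.3. Calls and limma were tested on simulated data.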

Additional observations from a re-analysis of the deposited data

Results flagged for a closer look

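Probe sets that name no gene were left out of the comparison and carried signal as well. At least 4-fold higher in the pachytene fraction were 12 of 714 measured ones on the first design (1.68%) and 32 of 3358 on the second (0.95%). Among probe sets that name 1 gene the shares were 1.93% and 2.78%. Lower were 35 (4.90%) and 24 (0.71%). They stand out only as data that the comparison did not use.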

How the results depend on the processing

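The counts of calls depended on scaling, floor and threshold. Higher calls numbered 325 as reported, 694 with median scaling, 684 as deposited, 185 with a log2 of signal plus floor, and 164 to 187 from 1 design alone. At 2-fold there were 1761 and at 8-fold 25. Lower calls numbered 608 as reported, 405 with quantile normalization, 359 with median scaling, 316 with the floor at the 60th percentile, 266 with a log2 of signal plus floor, 344 with averaged probe sets, 192 to 492 from 1 design, 2835 at 2-fold and 95 at 8-fold. The X-linked share was 17.2% as reported, 11.1% with quantile normalization, 8.83% with median scaling, 11.9% with shared probe sets, 12.2% with the higher floor, 6.05% with signal plus floor, 9.01% with averaged probe sets, and 11.2% to 20.5% from 1 design. It was above the autosomal share in each. Limma called 68 shared probe sets, 69 with the replicate block, 62 with median scaling, 35 with quantile normalization and 32 as deposited. The cause of these shifts was not tested. Samples of the same number share an array design, and their deviations correlated from -0.02 to 0.57 over 10 pairs of groups, so the numbers were not taken as pairing samples. Of 1150 values of 116 called genes, 1149 kept their direction and 988 their call, and 58 genes kept the call in all alternatives. H1f2 reversed with plain probe sets (0.037). Of list medians that exceeded the error limit as reported, 3 changed sign, all on the second design alone: testis chaperones (-0.21), meiotic recombination (0.30) and immediate-early genes (-0.36). Medians within that limit changed sign in 27 values of 11 lists, among them the proteasome, respiratory chain, ribosomal, kinesin and macrophage lists. Signal near the floor limits the lower genes most, since 209 of their calls are bounds.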

Other observations

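Genes of cholesterol synthesis and uptake were near the background. Beyond the error limit 4 of 17 were higher and 7 lower, beside 25.7% and 38.2% of all genes, 0 passed 4-fold and the median was 0.02 (-0.17 as deposited). Fdft1, squalene synthase, was 3711 against 1612, whereas Hmgcs1, of the first step, was 1783 against 4967 and Msmo1 went from 298 to the floor.

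Nucleoporins and kinesins included members that stood apart from their families. Nup210 fell to the floor from 406, while Nup188 was 1860.3 against 595. Kif9, a kinesin of the flagellum, was 2709 against 732, against a median of 0.12 over 34 kinesins.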
